A study of Mus musculus with 2 samples.

Results

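The nutrient transporters of T cell growth were followed as 10 genes of the 32285 listed in the deposited matrix. They were chosen by name but with earlier results of these data known, so counts of members beside all genes are descriptions only. For amino acids they were Slc7a5, Slc3a2, Slc1a5, Slc7a1 and Slc38a2, and for glucose Slc2a1 and Slc2a3. Slc16a1 and Slc16a3 stood for lactate and other monocarboxylates, and Tfrc for iron. CD8+ T cells from the spleen of mice with the WT genotype spent 30 h at rest or under 1 of 5 peptide-MHC stimuli. Each culture was then marked with its own barcoded hashtag antibody, live cells were sorted with propidium iodide, and all cultures shared 1 droplet lane (10x Genomics). The stimuli were plate-bound biotinylated monomers of the mouse class I molecule H-2Db, carrying peptide M9C at 20, 2 or 0.2 pmol or peptide L6F at 80 or 20 pmol, per the deposited key to the hashtags. Each condition was 1 culture, so nothing below has a replicate check, and every interval is a 95% interval that covers counting error only.

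A resting T cell takes up little nutrient, and after antigen recognition it enlarges and divides, which requires far more amino acids, glucose and iron. The uptake is set in large part by how many carriers sit in the plasma membrane. Slc7a5 (LAT1) carries large neutral amino acids such as leucine and works only as a heterodimer with the glycoprotein Slc3a2 (CD98, 4F2hc), which also serves other partners, while Slc1a5 (ASCT2) carries glutamine and small neutral amino acids. The carriers are known targets of Myc, of the amino acid response factor ATF4 and of mTORC1 signalling, and much of their control lies in trafficking and protein turnover, which RNA counts do not show.

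All 10 genes lie on GRCm38 (mm10) as protein-coding genes, and the positions are those of GENCODE vM21. Slc7a5 (ENSMUSG00000040010) spans chr8:121881150-121907694 on the minus strand, Slc3a2 (ENSMUSG00000010095) chr19:8706882-8723369 on the minus strand and Slc1a5 (ENSMUSG00000001918) chr7:16781340-16798274 on the plus strand. Slc7a1 (ENSMUSG00000041313) spans chr5:148327410-148399904 and Slc38a2 (ENSMUSG00000022462) chr15:96687392-96699730, both on the minus strand. Slc2a1 (ENSMUSG00000028645) spans chr4:119108711-119137983 on the plus strand and Slc2a3 (ENSMUSG00000003153) chr6:122727809-122801640 on the minus strand. Slc16a1 (ENSMUSG00000032902) spans chr3:104638668-104658462, Slc16a3 (ENSMUSG00000025161) chr11:120948480-120960868 and Tfrc (ENSMUSG00000022797) chr16:32608920-32632794, all 3 on the plus strand. Slc16a1 contains 2 unnamed transcripts in its introns on the same strand, Gm43581 with 260 UMIs (unique molecular identifiers, the counted molecules) over all conditions and Gm43585 with 10, so a few molecules could have been assigned to either.

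The promoters of the member with the largest ratio to rested cells, Slc16a1, and of the one that was no higher than in rested cells, Slc38a2, are shown because they are the ends of the range described below. Each is the RefSeq window of 250 bases before to 50 after the start site on GRCm38.p6, chr3:104638414-104638713 on the plus strand and chr15:96699679-96699978 on the minus strand, written 5′ to 3′ on the gene's strand. Capitals mark every match of ACGTG or GCGTG on either strand, the core shared by the E-box CACGTG (bound by Myc with Max and by related factors) and by the site of the hypoxia factors.
Slc16a1: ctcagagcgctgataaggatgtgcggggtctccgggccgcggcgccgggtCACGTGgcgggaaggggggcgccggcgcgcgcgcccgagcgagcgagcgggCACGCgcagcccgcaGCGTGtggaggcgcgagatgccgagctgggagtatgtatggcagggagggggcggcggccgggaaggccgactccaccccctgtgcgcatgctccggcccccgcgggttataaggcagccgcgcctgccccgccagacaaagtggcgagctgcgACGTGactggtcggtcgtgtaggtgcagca
Slc38a2: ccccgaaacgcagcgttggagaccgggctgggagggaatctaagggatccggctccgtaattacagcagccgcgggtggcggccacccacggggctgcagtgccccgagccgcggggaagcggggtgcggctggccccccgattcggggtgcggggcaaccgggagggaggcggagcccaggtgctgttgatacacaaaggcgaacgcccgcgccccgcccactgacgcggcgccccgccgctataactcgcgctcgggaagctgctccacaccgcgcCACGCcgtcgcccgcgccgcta
The Slc16a1 window held 5 matches of the core, counted on both strands, and the Slc38a2 window 1. The first stretch of capitals in Slc16a1 is the palindrome CACGTG, which begins at position -200 from the start site and counts once on each strand. RefSeq promoters were matched for 7 of the 10 members in 9 windows, and Slc16a1 was the 1 member with CACGTG, against 7.15% of all 32851 windows of that length. The shorter core was found in 43.8% of all windows. Among the other member windows it had 3 matches in each of Tfrc, 2 in Slc2a1, 2 in Slc16a3, 1 in Slc3a2, and 0 and 1 in those of Slc7a1. These matches are letters in a window and are no measurement of binding.

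The cells of the 6 cultures differed widely in depth. Of 13439 barcodes, 11671 could be assigned to a culture by hashtag and 10600 of these also held 500 or more genes with no more than 10% mitochondrial UMIs, with 755 rested cells and 1589 to 2477 in a stimulated culture. The median cell held 1056 UMIs at rest and 6050 to 7114 after stimulation, a ratio of 5.73 to 6.74, and 52.3% of the rested cells given a condition fell under the gene minimum against 1.16 to 3.30% of stimulated ones. The rested values therefore rest on 918920 UMIs in all against 11376897 to 16014100, and 1 UMI there is worth 1.09 CPM (UMIs of a gene scaled to a common total per condition). Ribosomal protein genes took 33.6% of the rested UMIs and 25.4 to 26.0% of the stimulated ones, and their part in the ratios to rested cells is given below by a scaling that leaves them out. Defining T cell genes were present in every culture, with a summed level of 6 of 6 CD8 T cell markers of 3843.6 CPM at rest and 1999.2 to 2159.5 CPM after stimulation, and Cd4 was at 0 in the rested cells. Summed over 6 of 6 genes each, macrophage and monocyte markers stood at 150.2 CPM against 2.67 to 26.3, with Adgre1, C1qa and C1qb at 0 at rest, and erythroid markers at 158.9 CPM against 2.68 to 41.7, with Alas2 at 0 at rest. Lyz2 made up 145.8 CPM of the former at rest. B cell markers were at 26.1 CPM at rest and 5.34 to 9.14 CPM after stimulation, and basophil and mast cell markers at 15.2 and 0.290 to 2.67 CPM. Dendritic cell markers were at 14.1 CPM at rest, all from Ccr9, and 0.264 to 0.774 CPM after stimulation. NK cell and neutrophil markers were at 3.26 CPM each at rest and lower in every stimulated culture. Gamma-delta T cell markers (4 of 4) were at 429.9 CPM at rest and 55.6 to 104.1 CPM after stimulation, of which Trdc made up 398.3 CPM at rest. Platelet markers (4 of 4) were at 0 CPM at rest and 1.00 to 8.12 CPM after stimulation, and CD4 T cell markers (3 of 3) at 1.09 CPM and 0.437 to 2.01 CPM. Batf3, a gene of activated T cells that the stimulated cells held at 65.5 CPM, was at 1.09 CPM at rest, 1.66% of that level with an upper limit of 9.26%, which also bounds what free RNA in the shared lane added there for that gene.

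Taken as a sum, the 10 members made up 445.1 CPM of the rested cells' RNA (403.0 to 490.4). The sum stood at 786.6 CPM at 20 pmol M9C, 757.0 at 2 pmol and 748.1 at 0.2 pmol, and at 649.7 CPM at 80 pmol L6F and 695.0 at 20 pmol. All 5 stimulated cultures were above the rested one, and both L6F cultures lay below the 3 M9C cultures with intervals that did not overlap. Per cell, that was 0.542 UMIs of the 10 genes at rest against 5.33 to 5.44 with M9C and 4.06 to 4.49 with L6F. Of that summed pool, Slc38a2 was 30.6% at rest and 14.6 to 18.1% after stimulation, whereas Slc16a1 went from 4.89% to 9.40 to 11.1% and Tfrc from 14.9% to 17.9 to 22.8%.

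**Figure D1:**
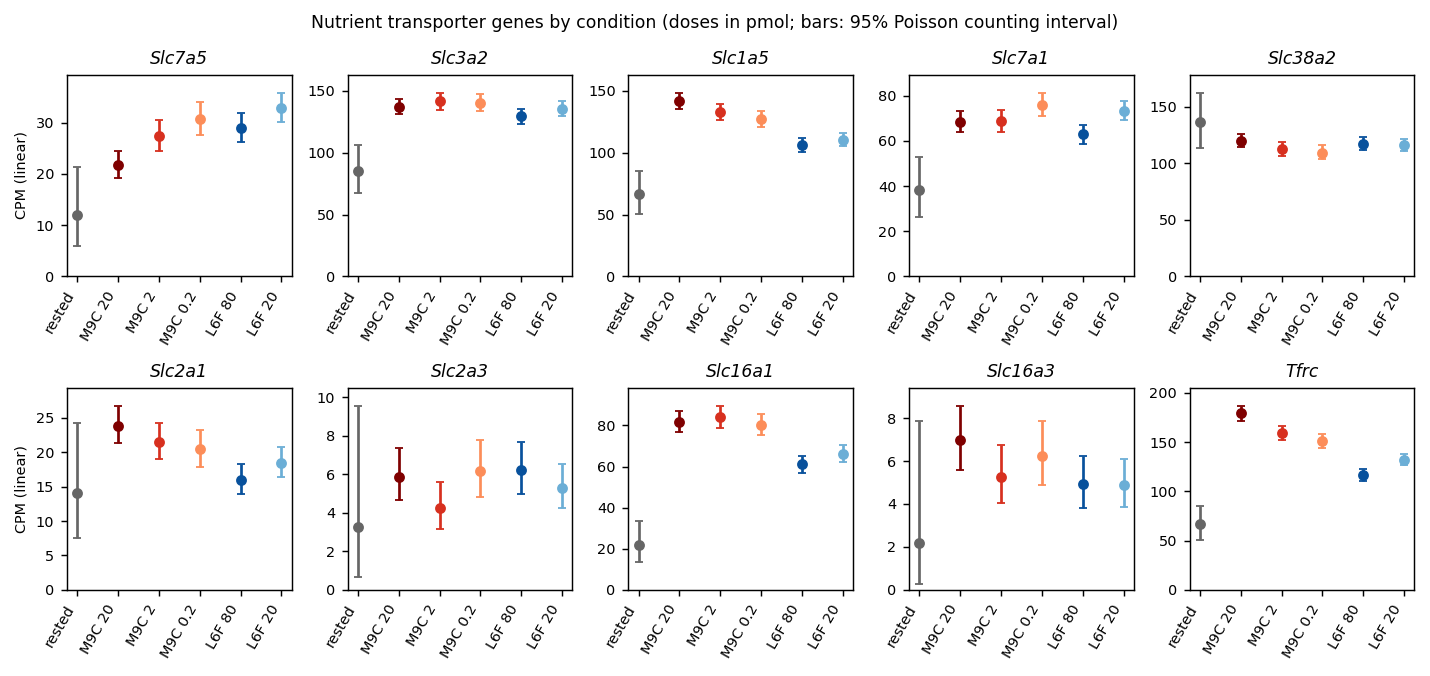
Level of each transporter gene (CPM, linear axis from 0, own scale per panel) in the rested culture and in the 5 stimulated ones, doses in pmol, with 95% Poisson counting intervals. Slc7a5 is lowest among stimulated cultures at 20 pmol M9C (21.7 CPM), where Tfrc is highest (179.0 CPM). Slc38a2 is at 136.0 CPM at rest and 109.4 to 120.0 CPM after stimulation.

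Among the amino acid carriers, the light chain Slc7a5 was at 12.0 CPM in rested cells, from 11 UMIs. It was at 21.7 CPM with 20 pmol M9C, 27.4 with 2 pmol, 30.7 with 0.2 pmol, 28.9 with 80 pmol L6F and 32.9 with 20 pmol L6F. Within M9C it was lower at 20 than at 2 pmol (log2 -0.34), while 2 and 0.2 pmol lay within counting error (log2 -0.16, -0.39 to 0.06). The 20 pmol M9C culture alone of the 5 had an interval of its ratio to rested cells that reached equality (log2 0.86, -0.00 to 1.88). Its partner Slc3a2 was at 84.9 CPM at rest and at 137.2, 141.4 and 140.5 CPM with 20, 2 and 0.2 pmol M9C, and at 129.5 and 135.6 CPM with 80 and 20 pmol L6F. Neighbouring stimulated values of Slc3a2 did not differ beyond counting error, and every stimulated culture was above rest by log2 0.61 to 0.74, short of 2-fold.

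The balance of the LAT1 subunits' RNA differed between the stimuli. Slc7a5 was 12.4% of the UMIs of the pair at rest (6.33 to 21.0%), 13.6% at 20 pmol M9C (12.2 to 15.2%), 16.2% at 2 pmol (14.6 to 17.9%) and 17.9% at 0.2 pmol (16.2 to 19.7%). With L6F it was 18.3% at 80 pmol (16.7 to 20%) and 19.5% at 20 pmol (18.0 to 21.1%). The interval at 20 pmol M9C did not overlap those at 0.2 pmol M9C or at either dose of L6F, and it did overlap the one at 2 pmol M9C. These shares, and those of the glucose and monocarboxylate carrier pairs below, compare counts of different genes, so only their change between conditions is read.

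The glutamine carrier Slc1a5 was at 66.4 CPM at rest. With M9C it stood at 141.8, 133.0 and 127.0 CPM at 20, 2 and 0.2 pmol, and with L6F at 106.3 and 110.7 CPM at 80 and 20 pmol. The lowest M9C culture was above the higher L6F culture by log2 0.20 (0.10 to 0.30), while neighbours within a peptide did not differ beyond counting error. Slc7a1 (CAT-1), which carries arginine and lysine, was at 38.1 CPM at rest, at 68.4, 68.6 and 75.9 CPM with 20, 2 and 0.2 pmol M9C, and at 62.9 and 73.1 CPM with 80 and 20 pmol L6F. It was lower at the higher dose of L6F by log2 0.22 (interval of the ratio -0.35 to -0.09), within the limit of log2 0.32 in either direction that is used here between stimulated cultures.

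Slc38a2 (SNAT2), a sodium-coupled carrier of small neutral amino acids that cells raise when amino acids run short, did not follow the others. It was at 136.0 CPM at rest, at 120.0, 112.7 and 109.4 CPM with 20, 2 and 0.2 pmol M9C, and at 117.4 and 115.8 CPM with 80 and 20 pmol L6F. Its log2 ratios to rested cells lay between -0.31 and -0.18, and the interval excluded equality at 0.2 pmol M9C alone (-0.58 to -0.04). These ratios depend on the scaling. Slc38a2 was at log2 -0.50 to -0.37 without ribosomal protein and mitochondrial genes, and at -0.17 to 0.03 when thinned to 1000 UMIs. In UMIs per cell it was 4.43 to 5.01 times the rested value, the smallest ratio of any member on that scale.

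The glucose carriers were thinly counted. Slc2a1 (GLUT1) was at 14.1 CPM at rest from 13 UMIs, at 23.8, 21.5 and 20.5 CPM with 20, 2 and 0.2 pmol M9C and at 16.0 and 18.5 CPM with 80 and 20 pmol L6F. All 5 intervals of its ratio to rested cells included equality (log2 0.18 to 0.75), so a difference from rest was not detectable in CPM over all assigned cells. It did reach 2-fold with an interval above equality under some of the alternatives. Thinned to 1000 UMIs per cell, with 4 rested cells holding a UMI, it was at log2 1.67 (0.22 to 3.60) at 20 pmol M9C and 1.49 (0.02 to 3.43) at 2 pmol. Without cells holding 2 or more UMIs of other cell types' markers it was at 1.00 (0.05 to 2.14) at 20 pmol M9C. Slc2a3 (GLUT3), a carrier of high affinity, had 3 UMIs in rested cells and 51 to 86 in a stimulated culture, which gave 3.26 CPM at rest and 4.26 to 6.24 CPM after stimulation. It stayed under the 10 CPM required of a measured gene, and no order of its levels could be read. Slc2a1 made up 72.0 to 83.5% of the UMIs of the pair.

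Slc16a1 (MCT1), which moves lactate, pyruvate and other monocarboxylates with protons, had the largest ratio to rested cells of the measured members in every stimulated culture. It was at 21.8 CPM at rest from 20 UMIs, at 81.8, 84.0 and 80.3 CPM with 20, 2 and 0.2 pmol M9C, and at 61.1 and 66.3 CPM with 80 and 20 pmol L6F. The M9C cultures differed from one another by less than counting error, the L6F cultures likewise, and the lowest M9C value was above the higher L6F value by log2 0.28 (0.15 to 0.41). Slc16a3 (MCT4), the isoform known from cells that export much lactate, had 2 UMIs at rest and 63 to 90 in a stimulated culture, at 2.18 CPM and 4.87 to 6.97 CPM. Like Slc2a3 it was under 10 CPM in all 6 conditions and is not counted as measured, and Slc16a1 held 90.9 to 94.1% of the UMIs of that pair.

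Tfrc encodes the transferrin receptor (CD71), by which dividing cells import iron. It was at 66.4 CPM at rest, at 179.0, 158.9 and 151.3 CPM with 20, 2 and 0.2 pmol M9C, and at 116.4 and 131.9 CPM with 80 and 20 pmol L6F. It was higher at 20 than at 2 pmol M9C by log2 0.17 (0.08 to 0.26), higher at 0.2 pmol M9C than at 20 pmol L6F by log2 0.20 (0.10 to 0.29) and higher at 20 than at 80 pmol L6F by log2 0.18 (0.09 to 0.28). The 2 and 0.2 pmol M9C cultures did not differ beyond counting error.

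Against rested cells, a gene was counted as higher where it reached 2-fold in CPM with an interval that excluded equality, among genes that reached 10 CPM in at least 1 of the cultures compared. Of the 8 members measured, 3 were higher at 20 pmol M9C, against 16.9% of all genes measured. Slc1a5 was 2.14-fold higher (1.65 to 2.80), Slc16a1 3.76-fold (2.42 to 6.18) and Tfrc 2.70-fold (2.09 to 3.54). At 2 pmol M9C 4 of 8 were higher (16.7% of all genes), the same 3 and Slc7a5 at 2.29-fold (1.26 to 4.63), and at 0.2 pmol 3 of 8 (16.5% of all genes), Slc7a5 at 2.56-fold, Slc16a1 at 3.69-fold and Tfrc at 2.28-fold. With L6F 2 of 8 were higher at 80 pmol (13.5% of all genes) and 2 of 8 at 20 pmol (14.3%), Slc7a5 and Slc16a1 at each dose. Slc7a5 was at 2.42-fold and 2.75-fold and Slc16a1 at 2.81-fold and 3.04-fold. No member was 2-fold lower in any of the 5 comparisons, where 16, 16.4, 16.3, 13.3 and 14% of all genes were, in the order 20, 2 and 0.2 pmol M9C, 80 and 20 pmol L6F. These 5 comparisons share the rested culture. The calls of Slc1a5 lie near the limit. Scaled without ribosomal protein and mitochondrial genes it was at log2 0.51 to 0.91 over the 5 cultures, under 2-fold in each, and thinned to 1000 UMIs at 0.51 to 0.92. At 2 pmol M9C it was also under the limit without a gene minimum (0.95), without cells above 3 times the median UMIs (1.00, just short of 2-fold) and without cells holding other cell types' markers (0.88).

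The median log2 CPM ratio of all 10 members, the unmeasured Slc2a3 and Slc16a3 included, was 0.85, 0.93, 0.97, 0.77 and 0.84 in the same order. For all measured genes, a set that leaves out such thinly counted genes, it was 0.07 to 0.10. Slc16a1 kept its place above 2-fold when cells were assigned by HTODemux (log2 1.54 to 1.98) and when the minimum number of genes was dropped (log2 1.34 to 1.80). Tfrc did not, since with HTODemux its log2 ratios to rested cells were 0.29 to 0.92, under 2-fold in all 5. Without cells holding 2 or more UMIs of other cell types' markers they were 1.03 to 1.67, above 2-fold in all 5. With at least 1000 genes per cell only 47 rested cells were left, and there Slc16a1 (log2 0.57 to 1.03) and Tfrc (log2 0.09 to 0.70) had intervals that included equality in each of the 5, while Slc1a5 and Slc7a1 were higher in each.

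**Figure D2:**
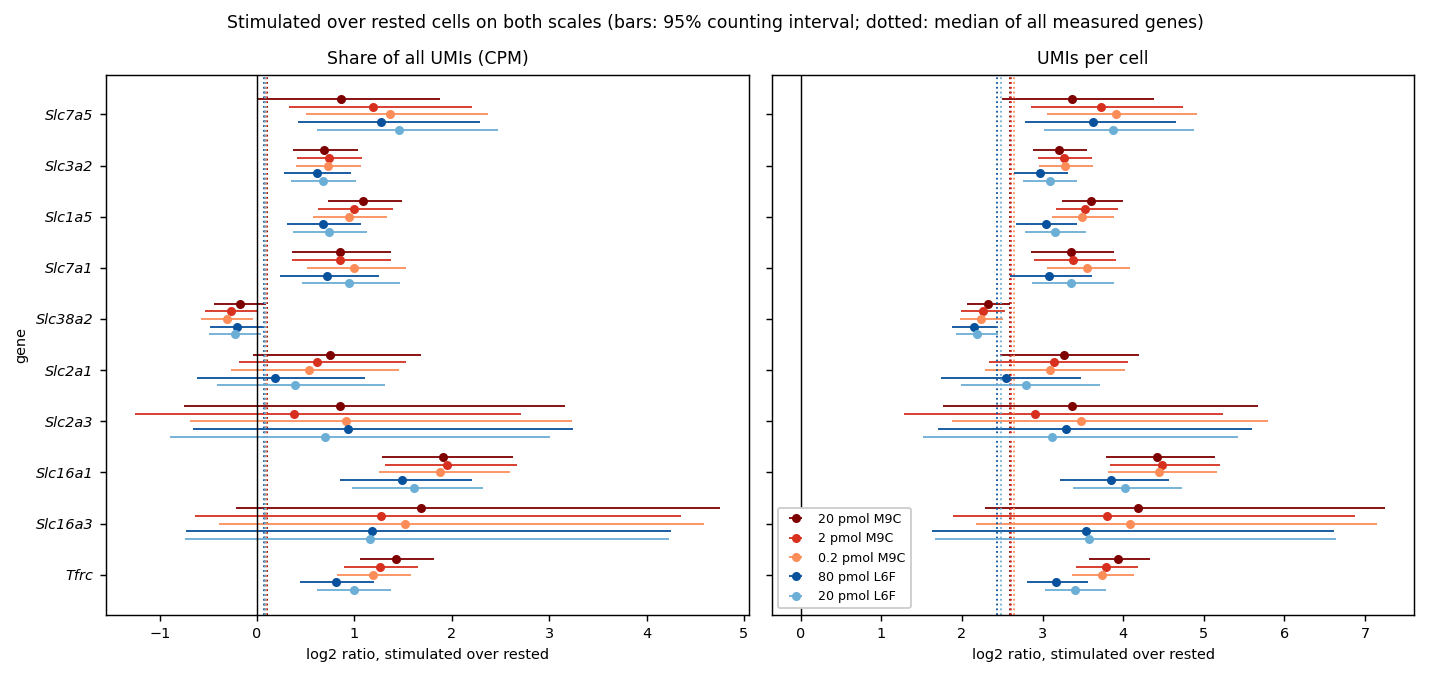
Log2 ratio of each stimulated culture over the rested one for the 10 genes, as a share of all UMIs (left) and in UMIs per cell (right), with 95% counting intervals and, dotted, the median of all measured genes. In CPM Slc16a1 stands highest of the measured genes (log2 1.49 to 1.95) and Slc38a2 below 0, and per cell all 10 lie above 0.

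In UMIs per cell the stimulated cells held more of most genes. On that scale 8 of 8 measured members were 2-fold higher in each stimulated culture, as were 90.7, 91, 91.5, 91.8 and 91.8% of all genes at 20, 2 and 0.2 pmol M9C and 80 and 20 pmol L6F, so the count does not set the members apart. Slc16a1 was 14.4 to 22.3 times, Tfrc 9.0 to 15.3 times and Slc7a5 10.3 to 15.1 times as abundant per stimulated as per rested cell. The median log2 ratio per cell of all 10 members, measured or not, was 3.13 to 3.52, beside 2.43 to 2.65 for all measured genes. More RNA per cell and a better capture from larger cells cannot be told apart in these counts.

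Depth was closer among the stimulated cultures, with medians of 6943 to 7114 UMIs per cell with M9C and, lower, 6050 and 6354 with L6F. Between them a gene was counted at a log2 ratio of at least 0.32 in size, again with an interval that excluded equality. Within M9C, 20 against 2 pmol gave 0 of 8 members higher (1.57% of all genes) and 1 of 8 lower (0.749%), which was Slc7a5 at log2 -0.34 (-0.57 to -0.10). From 2 to 0.2 pmol no member passed in either direction, where 1.57% of all genes were higher and 1.77% lower at the larger dose. Over the whole dose range, 20 against 0.2 pmol, again 0 of 8 were higher (3.23% of all genes) and Slc7a5 alone was lower (1.95%), at log2 -0.50 (-0.73 to -0.27). Only 0.674% of the measured genes had a lower ratio than Slc7a5 in that comparison. Tfrc went the other way at log2 0.24 (0.15 to 0.33) and Slc1a5 at 0.16 (0.06 to 0.26), both within the limit, with 93.9% and 88.3% of measured genes below them. With HTODemux, Slc7a5 was at log2 -0.28 for 20 against 2 pmol, inside the limit, and at -0.47 for 20 against 0.2 pmol.

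For L6F, 80 against 20 pmol, 0 of 8 members passed in either direction, against 0.963% of all genes higher and 1.01% lower. Slc7a1 at log2 -0.22 (-0.35 to -0.09) and Tfrc at -0.18 (-0.28 to -0.09) were lower at the larger dose with intervals that excluded equality. The intervals of Slc2a1 (-0.21, -0.46 to 0.05) and Slc7a5 (-0.19, -0.38 to 0.01) included it. Tfrc was thus higher at the larger dose of M9C and lower at the larger dose of L6F. The doses of the peptides are not matched, and the difference between the dose responses was not tested.

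At the matched dose of 20 pmol, M9C against L6F, 3 of 8 members were higher, against 6.86% of all genes. Tfrc was higher by log2 0.44 (0.35 to 0.53), Slc2a1 by 0.37 (0.13 to 0.60) and Slc1a5 by 0.36 (0.26 to 0.45), and Slc16a1 lay just inside the limit at 0.30 (0.18 to 0.43). Slc7a5 was lower at log2 -0.60 (-0.82 to -0.39), 1 of 8 against 7.4% of all genes. Slc3a2 (0.02, -0.07 to 0.11), Slc7a1 (-0.10, -0.22 to 0.03) and Slc38a2 (0.05, -0.05 to 0.15) had intervals inside the limit either way. The same 4 genes passed under HTODemux, without a gene minimum and without cells carrying other cell types' markers.

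**Figure D3:**
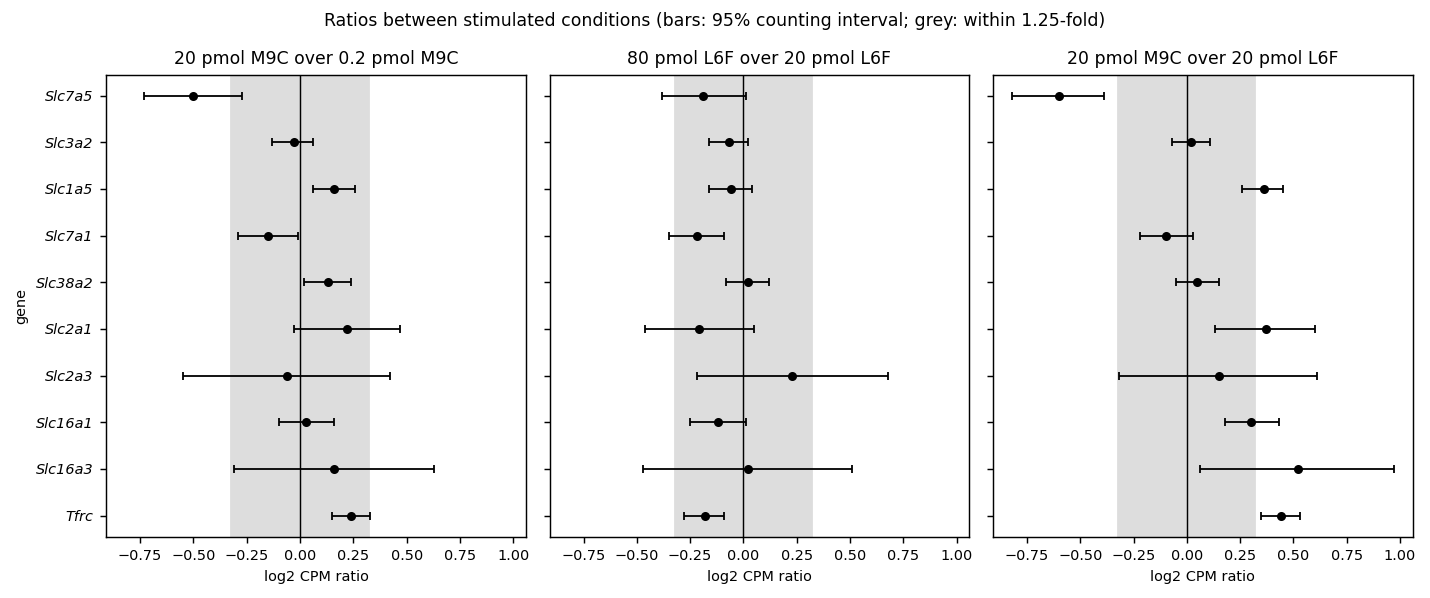
Log2 CPM ratios of the 10 genes between stimulated cultures, 20 over 0.2 pmol M9C, 80 over 20 pmol L6F and 20 pmol M9C over 20 pmol L6F, with 95% counting intervals and, in grey, the range within log2 0.32 of equality. Slc7a5 lies left of the grey band for 20 over 0.2 pmol M9C and for M9C over L6F (log2 -0.50 and -0.60), and Tfrc, Slc1a5 and Slc2a1 lie right of it for M9C over L6F.

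Shares of cells with a UMI were compared at equal depth, after thinning at random to 3000 UMIs. Cells with fewer were left out, which kept 1751 of 1869, 1597 of 1703 and 1500 of 1589 cells at 20, 2 and 0.2 pmol M9C and 1987 of 2207 and 2258 of 2477 at 80 and 20 pmol L6F. Slc7a5 was seen in 5.25% of cells at 20 pmol M9C (4.26 to 6.41%), 7.83% at 2 pmol (6.56 to 9.25%) and 8.73% at 0.2 pmol (7.35 to 10.3%). With L6F it was seen in 8.20% at 80 pmol (7.03 to 9.50%) and 9.74% at 20 pmol (8.55 to 11%). The share at 20 pmol M9C did not overlap any of the other 4. Tfrc was seen in 39.5%, 35.1% and 35.1% of cells at 20, 2 and 0.2 pmol M9C and in 28.5% and 30.5% at 80 and 20 pmol L6F, and Slc16a1 in 21.5 to 23.2% with M9C and 16.1 to 17.7% with L6F. Both L6F cultures were below all 3 M9C cultures for Tfrc, Slc16a1 and Slc1a5 (26.5 to 27.4% against 31.9 to 33.9%). Slc2a1, which passed the CPM limit for M9C over L6F at 20 pmol, was seen in 5.77% (4.72 to 6.96%) and 4.78% (3.94 to 5.75%) of those cells, intervals that overlap, and its highest share was 6.07% at 0.2 pmol M9C.

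**Figure D4:**
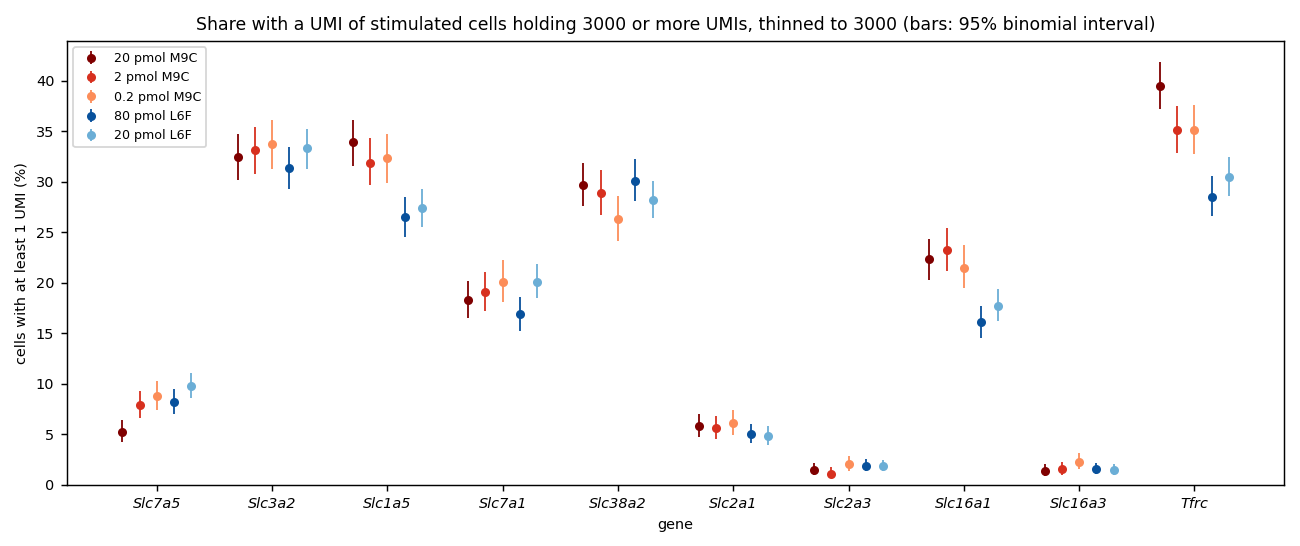
Share of stimulated cells with at least 1 UMI of each gene, among cells of 3000 UMIs or more thinned to 3000, with 95% binomial intervals, by culture. Slc7a5 is lowest at 20 pmol M9C (5.25%), and Tfrc, Slc16a1 and Slc1a5 are lower in both L6F cultures than in the M9C ones.

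To compare with rested cells at equal depth, cells were thinned to 1000 UMIs. That left 464 of 755 rested cells, the ones with more UMIs, but 1862 of 1869 cells at 20 pmol M9C. A UMI of at least 1 member was seen in 36.2% of the rested cells kept (31.8 to 40.8%), against 56.6, 54.8 and 50.5% at 20, 2 and 0.2 pmol M9C and 47.0 and 49.7% at 80 and 20 pmol L6F. Single genes ranged from Slc16a1, in 1.72% of rested cells (0.747 to 3.37%) and 8.70% of cells at 20 pmol M9C (7.46 to 10.1%), to Slc38a2, in 11.4% (8.67 to 14.7%) and 11.5% (10.1 to 13.1%). Unthinned, Slc7a5 was seen in 1.46% of rested cells and 13.2% of cells at 20 pmol M9C, and the thinned shares were 1.29% and 2.31%.

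The spread across cells within a culture was also read at 3000 UMIs. There the variance of Tfrc across cells was 1.15 to 1.27 times its mean in the 5 cultures, and that of the other 9 genes was 0.953 to 1.20 times the mean. Counting alone gives a value near 1, and at the low means of Slc7a5, Slc2a1, Slc2a3 and Slc16a3 (0.0106 to 0.105 UMIs per cell) this ratio says little about how cells differ. Correlations across cells between members lay between -0.05 and 0.09 with medians of 0.00 to 0.01 over the pairs of genes, which in counts this sparse is a description only. Both LAT1 subunits were seen together in 1.83 to 3.81% of cells, beside 1.70 to 3.24% for the product of their separate shares. The joint share was above the product in every stimulated culture. At 80 pmol L6F it was 3.32% (2.58 to 4.21%) against a product of 2.57%, just outside the interval, and in the other cultures the interval included the product. With M9C, Tfrc took a smaller share of the UMIs in the cells with the most UMIs. With the cells of a culture split into 4 equal groups by UMI total, the highest group against the lowest, it was lower by log2 -0.38 (-0.56 to -0.19) at 20 pmol, -0.55 (-0.74 to -0.35) at 2 pmol and -0.25 (-0.46 to -0.03) at 0.2 pmol. With L6F the ratios were -0.01 and -0.17 at 80 and 20 pmol, and both intervals included equality. Of the other members, Slc16a1 was lower in the highest group at 2 pmol M9C (-0.35, -0.63 to -0.06) and Slc1a5 higher at 20 pmol L6F (0.30, 0.07 to 0.54), while the remaining intervals in stimulated cultures included equality.

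The genes most like each member were found by the root mean square difference of their log2 CPM profiles over the 6 conditions, centred, among 3428 genes at 50 CPM or more. Slc16a1 was nearest to Timm17a (0.03), Eef1e1 (0.04) and Slc29a1 (0.05), the last itself a nucleoside carrier at 21.8 CPM at rest and 64.0 to 82.1 CPM after stimulation. Tfrc was nearest to Ddt (0.05), Hspa5 (0.06) and Dot1l (0.06), Slc1a5 to Pou2f2 (0.03), Nfkbia (0.04) and Nol7 (0.04), and Fdx2 was among those nearest to Slc3a2 (0.02). Slc7a5 was nearest to Endog (0.12), Ccnh (0.13) and Mrpl13 (0.13), a looser fit, and its nearest member was Slc7a1 (0.22). For Slc38a2 the nearest were Clcn3 (0.02), Gnai3 (0.03) and Magt1 (0.03), for Slc7a1 Coq5, Mre11a and Ebna1bp2 (0.05 each), and for Slc2a1 Ktn1 (0.05), Tpd52l2 (0.05) and Lcp2 (0.06). Slc2a3 (Nup88, Stard7 and Rfc1, 0.14 each) and Slc16a3 (Phf6, Insig1 and Nudt4, 0.10 each) rest on too few UMIs at rest to be read further. Slc7a5 and Slc2a1 had 11 and 13 UMIs at rest, so their nearest genes and the looseness of fit are uncertain too.

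The other genes of uptake and its control were counted in 7 lists at 20 pmol M9C against rested cells, at the same limit and beside the same 16.9% of all genes higher and 16% lower. Of 11 measured genes in the list labelled first enzymes of the imported nutrients, 6 were higher and none lower, with a median log2 of 1.55. The label is loose, since the list also holds enzymes of later steps and of synthesis, such as Ldha, Phgdh and Asns. Bcat1, which opens branched-chain amino acid breakdown, was 7.82-fold higher (3.77 to 19.5) and Asns, asparagine synthetase, 7.22-fold (2.80 to 26.6, from 4 UMIs at rest). The others were Hk2, Ldha, Odc1 and Phgdh, with Ldha at 537.6 CPM at rest and 1880.0 CPM at 20 pmol M9C.

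Of 6 other amino acid carriers measured, 2 were higher (Slc7a6 and Slc43a3) and 2 lower (Slc38a9 and Slc43a2). Slc43a3, known as a purine nucleobase carrier despite its family, was 4.86-fold higher (1.64 to 23.8, from 3 UMIs at rest), and Slc43a2 (LAT4), a carrier of neutral amino acids by facilitated diffusion, was 4.63-fold lower (2.91 to 7.17). Of 6 sugar and monocarboxylate genes 2 were higher and 1 lower. Bsg (basigin), the chaperone that brings Slc16a1 and Slc16a3 to the membrane, was at 218.7 CPM at rest and 539.9, 521.9 and 473.1 CPM with 20, 2 and 0.2 pmol M9C and 406.1 and 405.5 CPM with L6F, 2.47-fold higher at 20 pmol M9C (2.15 to 2.85). Emb (embigin), the related chaperone, was at 446.2 CPM at rest and 165.7 to 172.6 CPM after stimulation, 2.67-fold lower (2.40 to 2.97).

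Of 11 iron genes measured, 2 were higher (Aco1 and Slc25a37) and 1 lower (Slc11a2), with a median log2 of -0.21. Aco1, an iron regulatory protein that binds the Tfrc messenger, was 3.41-fold higher (1.31 to 12.7, from 4 UMIs at rest) and the divalent metal carrier Slc11a2 2.37-fold lower (1.49 to 3.64). Of 19 nucleoside, vitamin, ion and other solute carriers 7 were higher and 3 lower, with Slc19a1, the reduced folate carrier, at 5.38-fold (3.13 to 10.1) and Slc29a1 at 3.77-fold (2.43 to 6.20). Of 13 mitochondrial carriers 5 were higher and 1 lower, with the pyrimidine nucleotide carrier Slc25a33 at 4.17-fold (2.18 to 9.18) and the aspartate and glutamate carrier Slc25a13 at 3.61-fold (1.39 to 13.4).

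Of 25 genes of growth sensing and control measured, 4 were higher and 8 lower. Klf2, a factor of quiescent T cells, was 38.7-fold lower (32.7 to 45.9) and Pik3ip1, an inhibitor of PI3 kinase, 21.4-fold lower (15.4 to 30.1). Txnip, which promotes internalisation of Slc2a1, was at 183.9 CPM at rest and 11.3 to 20.2 CPM after stimulation. The 4 higher genes were Hif1a, Atf4, Eif4ebp1 and Nfatc1.

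**Figure D5:**
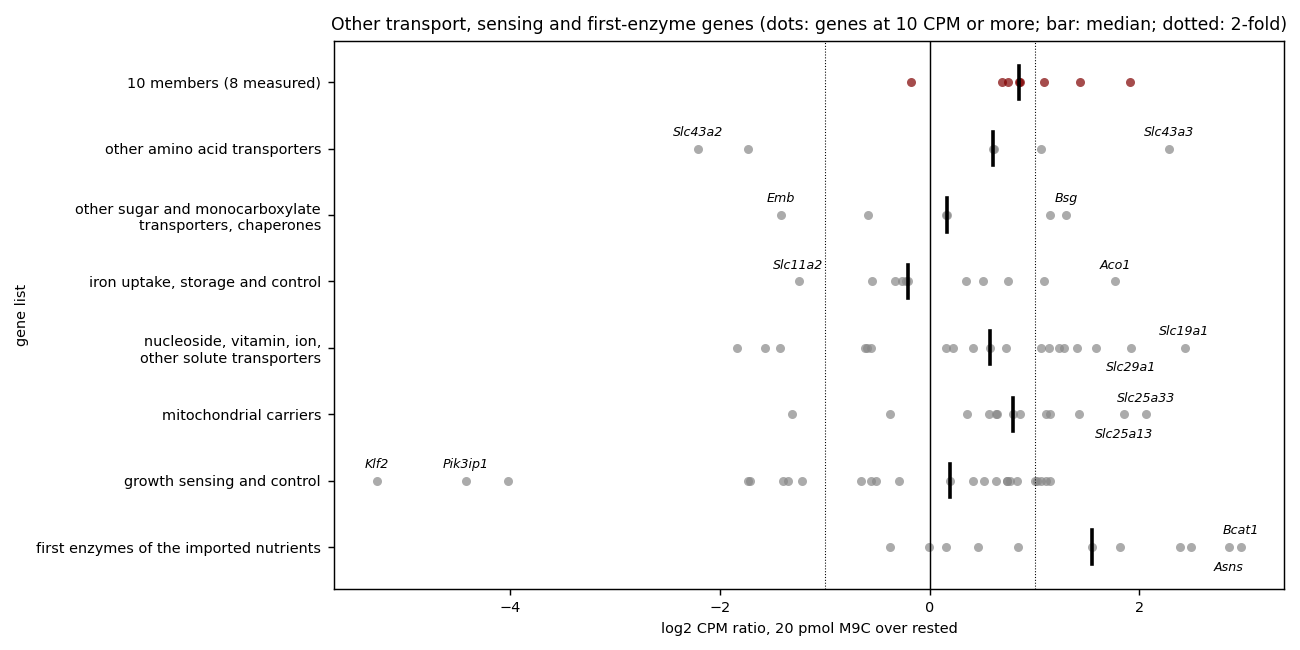
Log2 CPM ratio of 20 pmol M9C over rested cells for the 8 measured members and for the measured genes of 7 related lists, 1 dot per gene, with the median as a bar and 2-fold as dotted lines. The list labelled first enzymes, a loose label, has the highest median (1.55), and Klf2 and Pik3ip1 lie far to the left.

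Of the genes in these lists, 4 are given across the stimulated cultures, picked after their values were seen. Eif4ebp1 ordered the 5 cultures by CPM as Slc7a5 did. That order is mostly unresolved, since of the neighbouring cultures only 20 and 2 pmol M9C differed beyond counting error in Slc7a5. Eif4ebp1 encodes the translation repressor 4E-BP1. It was at 178.5, 221.6 and 278.1 CPM with 20, 2 and 0.2 pmol M9C and at 230.4 and 284.4 CPM with 80 and 20 pmol L6F. It was lower at 20 than at 0.2 pmol M9C by log2 -0.64 and lower at 20 pmol M9C than at 20 pmol L6F by log2 -0.67. Asns had another order, at 31.4, 33.6 and 41.8 CPM with 20, 2 and 0.2 pmol M9C and at 26.6 and 36.8 CPM with 80 and 20 pmol L6F, lower at 20 than at 0.2 pmol M9C by log2 -0.41 and lowest at 80 pmol L6F, by log2 -0.47 against 20 pmol. Hif1a followed the order of Tfrc within M9C, at 119.6, 103.6 and 91.6 CPM, and was at 90.2 and 92.9 CPM with L6F. Atf4, whose product is known to act on Slc7a5, Asns and Eif4ebp1, was at 188.2, 190.7 and 206.0 CPM with M9C and at 162.4 and 191.9 CPM with L6F. It passed the limit in none of these comparisons. RNA counts do not show the activity of its product, and whether that product acted on these genes here was not tested.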

How the data were processed

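Counts of UMIs per gene and per hashtag were deposited by the authors in 1 matrix, made on GRCm38 (mm10) with bcl2fastq and Cell Ranger 6.0.1, as the submitters' processing notes say. Their annotation and cell calling were not given in the sources used here. A cell was given the condition of its top hashtag where that had at least 20 counts and 80% of the cell's hashtag counts, which left 1768 barcodes (13.2%) without one. Multiplets of 1 condition cannot be seen by hashtag (17.2% of cell pairs, about 366 cells if all barcodes without a condition are multiplets), and no other doublet caller was run. Counts were summed per condition, and a gene with no count is given at 0 CPM with no fold, where a count of 0 allows up to 3 counts (3.26 CPM at rest, 0.187 to 0.264 CPM elsewhere). Ratios have exact Clopper-Pearson intervals, CPM exact Poisson ones and shares exact binomial ones. With 1 culture per condition there is no p-value. The 10 comparisons were each stimulated culture against rest, the doses within a peptide, and the peptides at 20 pmol. Python 3.11.15, scipy 1.17.1 and Seurat 5.3.0 (R 4.3.3, HTODemux as an alternative assignment) were used. The ratio calls were tried on simulated counts with counting error alone, with changes of 2 times the fold limit put into genes at 50 CPM or more. That trial did not cover changes near the limit, changes in genes below that level such as Slc7a5, or variation between cultures. Promoters came from RefSeq on GRCm38.p6, with no entry used for Slc7a5, Slc1a5 and Slc2a3. The members, lists and limits were chosen with earlier results of these data known. The text names all members, the 2 list genes with the largest absolute log2 ratio at 20 pmol M9C against rest, the 3 genes most like each member and, chosen after their values were seen, the further genes that passed the limit and those said to be so. A few genes that the rule picks are not reported here. Alternatives were another assignment, other minimums of genes and CPM, other scales, thinning, other limits, and leaving out cells with very many UMIs or with other cell types' markers.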

Additional observations from a re-analysis of the deposited data

Results flagged for a closer look

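The barcodes given no condition, which no comparison uses, carried the members too. The 1565 of them that passed the filters on genes and mitochondrial UMIs had a summed level of the 10 members of 713.1 CPM (700.3 to 726.1), above the 445.1 CPM of the rested cells and within the range of the stimulated cultures, at a median of 9542 UMIs. This is a signal in data that the comparisons leave out, and no culture is assigned to these barcodes.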

How the results depend on the processing

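No paired analysis was possible because each condition was 1 culture. No log2 ratio of a member reversed a call under any alternative. Assigning cells by HTODemux left 0 members lower for 20 against 2 pmol M9C. Without a gene minimum (1583 rested cells) 5 members were higher at 20 pmol M9C and 4 at 20 pmol L6F against rest. At least 1000 genes left 2 at 2 pmol M9C, and 25 of the 50 ratios to rested cells moved beyond their intervals. Without cells holding other cell types' markers 2 were higher at 2 pmol M9C (Slc16a1 and Tfrc), 4 at 20 pmol M9C (Slc2a1 added), 4 at 0.2 pmol (Slc7a1 added) and 3 at each dose of L6F (Tfrc added). In UMIs per cell the count against rest was 8 in all 5 cultures. A minimum of 50 CPM left 1 higher at each dose of L6F and 0 lower for 20 against 2 and 0.2 pmol M9C and for M9C against L6F, since Slc7a5 is under that minimum. A 1.5-fold limit gave 5 higher at 20 pmol M9C and 6 each at 0.2 pmol M9C and at 80 and 20 pmol L6F against rest, and between stimulated cultures 0 lower for 20 against 2 and 0.2 pmol M9C and 0 higher for M9C against L6F. Thinning to 1000 UMIs discards most counts. Against rest Slc16a1 and Tfrc were then higher in all 5 cultures, Slc2a1 at 20 and 2 pmol M9C and Slc7a5 at 20 pmol L6F alone, and Slc1a5 in none. Between stimulated cultures it gave 0 lower for 20 against 2 and 0.2 pmol M9C, 1 higher (Tfrc) for 2 and for 20 against 0.2 pmol M9C, and 5 higher for M9C against L6F at 20 pmol, with Slc7a5 at log2 -0.16 for 20 against 0.2 pmol M9C (-0.81 to 0.48). CPM without ribosomal protein and mitochondrial genes moved the median log2 ratio of all genes to rested cells from 0.10 to -0.17 at 20 pmol M9C. That of all 10 members moved from 0.85 to 0.67. Leaving out ribosomal protein and mitochondrial genes, or cells above 3 times the median UMIs, kept all 100 member ratios within their intervals, yet the former took Slc1a5 under 2-fold at 20 and 2 pmol M9C (2 and 3 members higher) and the latter at 2 pmol (3 higher), with Tfrc added at 20 pmol L6F (3 higher). The cause of these changes was not tested. The rested culture limits every ratio to rest, since 4 members had 2 to 13 UMIs there.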
